A study of Zea mays with 18 samples.

Results

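Small heat shock proteins are low-mass chaperones of the HSP20 family, built around an alpha-crystallin domain. They bind unfolding proteins without using ATP and hold them in a soluble state until ATP-dependent chaperones such as HSP70 and HSP100 refold them. Plants have large families of them, grouped in classes by sequence and cell compartment, and the class I and class II proteins act in the cytosol. Their genes are best known for induction by heat through heat shock factors, and some are also transcribed during development.

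The 5 genes described here, of 34474 in the deposited table, are 4 class I genes (Zm00001d028557, Zm00001d028561, Zm00001d039935 and Zm00001d039936) and 1 class II gene (Zm00001d039566). They were chosen on their measured expression in these same libraries. Zm00001d028557 was chosen for its difference between hybrids and the other 4 for their change between stages, so those values are given as descriptions without a test. All 5 carry the HSP20 family term in the deposited annotation, and all 5 reached 1 FPKM in at least 2 libraries, the filter for testing. FPKM divides the fragment count of a gene by its length and by library size, so that levels can be compared between genes.

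Stems of maize (Zea mays) gave 18 poly-A RNA libraries, sequenced as read pairs. The 3 hybrids shared the parent Dan 598 and differed in plant height, and the other parent was FAPW for the low hybrid, CML444 for the middle hybrid and ES40 for the high hybrid. Each was sampled at jointing, when the stem starts to elongate, at the big flare period, the late whorl stage, and at tasseling, when the tassel emerges, with 2 libraries in each of the 9 groups. No treatment was given in the labels. Each height class was a single hybrid, so height and genotype cannot be told apart, and since nothing in the labels ties the paired libraries of a group to different plants, p-values reflect the spread among libraries, part of which may be technical. The absolute depth is unknown. Relative depth, read from the steps of low FPKM values, ran from 0.429 to 1.0, and its mean was 0.589 at jointing, 0.543 at big flare and 0.864 at tasseling.

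Zm00001d028557 was abundant in the low hybrid at every stage and near 0 in the other 2 hybrids. In the low hybrid its FPKM was 417 and 272 in the jointing libraries, 161 and 145 in those of big flare, and 144 and 112 in those of tasseling. The middle hybrid had 0 and 9.86, then 0 and 0, then 2.51 and 0.43 in the same order. In the high hybrid the values were 2.59 and 1.21, then 0 and 1.71, then 0 and 0.52. The lowest low-hybrid library thus lay above the highest library of both other hybrids, and 5 of the 18 libraries were listed at 0. On the log2(FPKM + 1) scale, averaged over stages, the high hybrid differed from the low hybrid by -6.72 ± 0.49 (SE), the middle from the low by -6.59 ± 0.49, and the high from the middle by -0.12 ± 0.49. These are the differences for which the gene was chosen. Over all 26792 genes tested, 3.58% were higher and 5.63% lower in the high than in the low hybrid at an adjusted p of 0.05 or less. The middle hybrid had 2.62% higher and 4.31% lower than the low hybrid, and the high hybrid had 2.37% higher and 2.07% lower than the middle hybrid. Nothing is read from these shares for this gene.

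**Figure D1:**
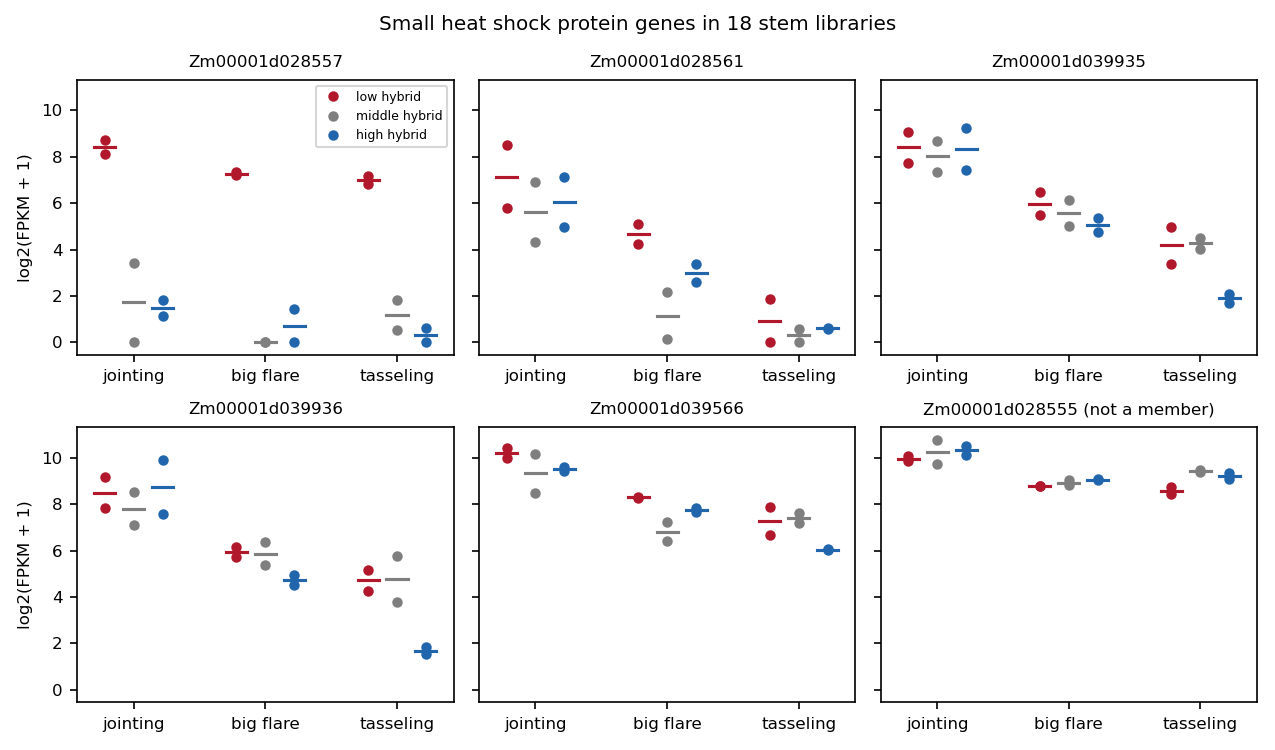
Expression as log2(FPKM + 1) of the 5 chosen genes and of Zm00001d028555 in each of the 18 libraries, by stage and coloured by hybrid, where points are libraries and bars are means of 2. Zm00001d028557 is separated by hybrid, and the other 4 chosen genes are lower at tasseling than at jointing in all 3 hybrids. In the middle hybrid the mean of Zm00001d039566 is higher at tasseling than at big flare.

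A gene outside the chosen set, Zm00001d028555, has the same best protein match as Zm00001d028557 (a class I heat shock protein 3), so reads of near-identical copies may have been divided between them. Zm00001d028555 was expressed in all 3 hybrids. Its FPKM in the low hybrid was 1076 and 924 (jointing), 435 and 443 (big flare) and 430 and 343 (tasseling). The middle hybrid had 848 and 1764, then 452 and 519, then 669 and 705. The high hybrid had 1475 and 1124, then 538 and 521, then 645 and 549. At big flare and at tasseling both low-hybrid libraries lay below those of the other hybrids. At jointing they lay below the high hybrid and overlapped the middle hybrid, and the middle and high hybrids overlapped each other.

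Added together and averaged over stages, the pair of genes had similar mean levels in the low, middle and high hybrids. Zm00001d028557 was at most 28.0% of the sum, so its own difference between hybrids could not appear there at full size. The sum also holds the hybrid values for which this gene was chosen, and it is given as a description. The summed FPKM was 817 ± 422 in the low, 828 ± 484 in the middle and 809 ± 399 in the high hybrid (SD, n = 6). On the log2 scale, averaged over stages, the sum differed between the high and low hybrids by 0.00 ± 0.22 and between the middle and low hybrids by 0.01 ± 0.22 (SE). These averages join stage differences of opposite sign. From jointing to tasseling, high minus low was -0.05, -0.16 and 0.22, and middle minus low was -0.12, -0.29 and 0.43 (each ± 0.37). At big flare both low-hybrid sums lay above those of the other hybrids, and at tasseling both lay below those of the middle hybrid. Zm00001d028557 made up 22.8% to 28.0% of the sum in the 6 low-hybrid libraries (25.4% ± 1.85, SD), 0% to 0.556% in the middle hybrid and 0% to 0.327% in the high hybrid. The sum ran from 455 to 1493 FPKM in the low hybrid, where the 2 genes fell alike in the first step. There, mean FPKM at big flare was 0.444 times that at jointing for Zm00001d028557 and 0.439 times for Zm00001d028555. Zm00001d028555 alone differed by 0.42 ± 0.21 between the high and low hybrids (adjusted p = 0.265) and by 0.42 ± 0.21 between the middle and low hybrids (adjusted p = 0.302), and neither passed. The sum was added after the data were seen, and the cause of the difference in Zm00001d028557 was not tested. Transcription, the gene copies or alleles that each hybrid carries, and how reads were assigned between the copies cannot be told apart here. The hybrids differ in a parent, and the only build named is B73 RefGen_v4.

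**Figure D2:**
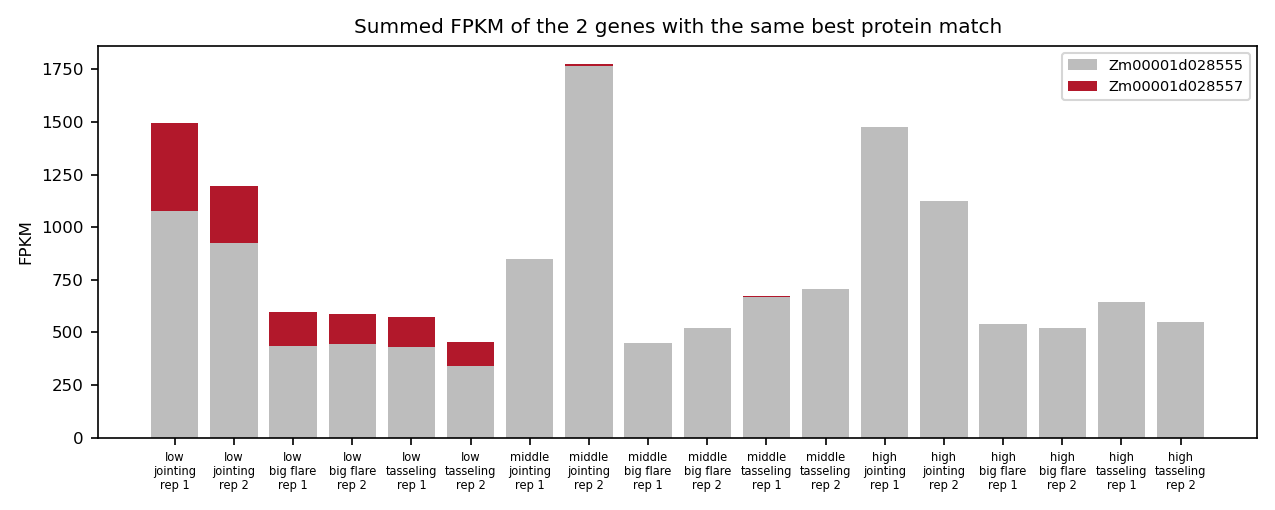
Stacked bars of FPKM for Zm00001d028555 (grey) and Zm00001d028557 (red) in each library. The red share is 22.8% to 28.0% in the low hybrid and at most 0.556% elsewhere, while the bar heights of the 3 hybrids overlap with stages pooled. At big flare the low-hybrid bars are the highest, and at tasseling they lie below those of the middle hybrid.

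The summed level of a list of 14 water-deficit genes was also highest in the low hybrid. It ran from 181 to 543 FPKM in the low-hybrid libraries, from 64.7 to 116 in the middle and from 45.9 to 82.5 in the high hybrid, with 0 of the 14 genes at 0 throughout. Of the 7 that could be tested, 1 was lower than in the low hybrid in the high hybrid (14.3%, beside 5.63% of all genes). In the middle hybrid 1 was lower (14.3%, beside 4.31%), and 0 were higher in either. Each share is a single gene. The median log2 change of those tested was -0.19 in high against low and -0.41 in middle against low, beside -0.07 and -0.04 over all genes. The gap in the sums is thus not read as a trait of the whole list. The part of water status in the level of Zm00001d028557 was not tested.

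The stage changes of Zm00001d028557 did not enter its choice and were tested with limma. In the low hybrid, mean FPKM was 345 at jointing, 153 at big flare and 128 at tasseling, and the libraries of the 3 stages did not overlap. Averaged over hybrids, the log2 change was -1.21 ± 0.49 from jointing to big flare (adjusted p = 0.125), 0.16 ± 0.49 from big flare to tasseling (adjusted p = 0.825) and -1.05 ± 0.49 from jointing to tasseling (adjusted p = 0.126). Thus 0 of 3 passed, and 1 had an unadjusted p under 0.05. Across all genes tested, 7.29% were higher and 5.06% lower at big flare than at jointing, 22.4% higher and 19.2% lower at tasseling than at big flare, and 18.8% higher and 11.1% lower at tasseling than at jointing. The result depended on a library near 0: without middle jointing replicate 1, the change was -1.78 to big flare (adjusted p = 0.00736) and -1.62 to tasseling (adjusted p = 0.00443). Without middle jointing replicate 2, the library at 9.86 FPKM, the same changes were -0.637 and -0.476, and neither passed.

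Within the low hybrid alone, the 3 changes were -1.14 ± 0.85 (adjusted p = 0.563), -0.26 ± 0.85 (adjusted p = 0.905) and -1.40 ± 0.85 (adjusted p = 0.341). In that hybrid, 0.16% of genes were higher and 0.172% lower at big flare than at jointing, 6.8% higher and 3.66% lower at tasseling than at big flare, and 3.82% higher and 1.25% lower at tasseling than at jointing. Zm00001d028555, measured in all hybrids, fell by 1.27 ± 0.21 from jointing to big flare (adjusted p = 0.00376) and did not pass from big flare to tasseling (0.16 ± 0.21, adjusted p = 0.579).

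The 4 genes chosen for their stage change were high at jointing and lower afterwards in all 3 hybrids. The class II gene Zm00001d039566, matched to LOC542723 in the RefSeq table of assembly NAM-5.0, was the most abundant of them. Its FPKM in the low hybrid was 1009 and 1362 (jointing), 309 and 316 (big flare) and 235 and 102 (tasseling). The middle hybrid had 360 and 1137, then 148 and 84.0, then 195 and 144. The high hybrid had 783 and 678, then 204 and 230, then 63.6 and 65.3. Jointing lay above big flare without overlap in each hybrid, and tasseling lay below big flare in the low and high hybrids but overlapped it in the middle hybrid, where the mean was 1.47 times that of big flare.

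Zm00001d039935 and Zm00001d039936 have the same best protein match, a class I heat shock protein 1, and their reads may also be divided between copies. Zm00001d039935 had an FPKM of 211 and 541 (jointing), 43.4 and 88.6 (big flare) and 30.4 and 9.53 (tasseling) in the low hybrid. In the middle hybrid it had 162 and 412, then 31.3 and 69.5, then 21.8 and 15.1. The high hybrid had 603 and 168, then 40.4 and 26.3, then 2.26 and 3.28. No 2 stages overlapped in any hybrid for this gene.

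For Zm00001d039936, the low hybrid had 229 and 567 FPKM (jointing), 52.2 and 70.3 (big flare) and 35.3 and 18.1 (tasseling). The middle hybrid had 137 and 363, then 40.5 and 81.2, then 53.2 and 13. In the high hybrid the values were 970 and 189, then 30.3 and 21.9, then 1.89 and 2.55. Only big flare and tasseling of the middle hybrid overlapped. The ratio of Zm00001d039936 to Zm00001d039935 stayed between 0.749 and 2.44 in the 18 libraries, and the log2 values of the pair had a Pearson r of 0.98 and a Spearman rho of 0.959, given as a description over libraries that share stage and depth.

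Zm00001d028561, matched to LOC100191552 and also named class I heat shock protein 3, was the least abundant of the 4 and came nearest to 0. In the low hybrid its FPKM was 54.0 and 357 (jointing), 33.6 and 17.9 (big flare) and 2.67 and 0 (tasseling). The middle hybrid had 19.2 and 119, then 3.47 and 0.11, then 0 and 0.51. The high hybrid had 137 and 30.6, then 5.12 and 9.46, then 0.52 and 0.51. All 6 tasseling libraries were at 2.67 FPKM or less, and big flare and tasseling overlapped in the middle hybrid.

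Expressed as log2 changes averaged over hybrids, with SE and no test, Zm00001d028561 had -3.32 ± 0.62 from jointing to big flare and -2.33 ± 0.62 from big flare to tasseling, and the latter was -3.627 with a pseudocount of 0.1 in place of 1. Zm00001d039935 had -2.71 ± 0.42 and -2.09 ± 0.42, and Zm00001d039936 had -2.83 ± 0.46 and -1.79 ± 0.46. The second step was smallest for Zm00001d039566, at -2.05 ± 0.29 followed by -0.72 ± 0.29. In bulk stem, fewer cells of a type and less RNA per cell cannot be told apart. Since these genes were chosen on stage, the background shares for the stage comparisons given above are not read against them.

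**Figure D3:**
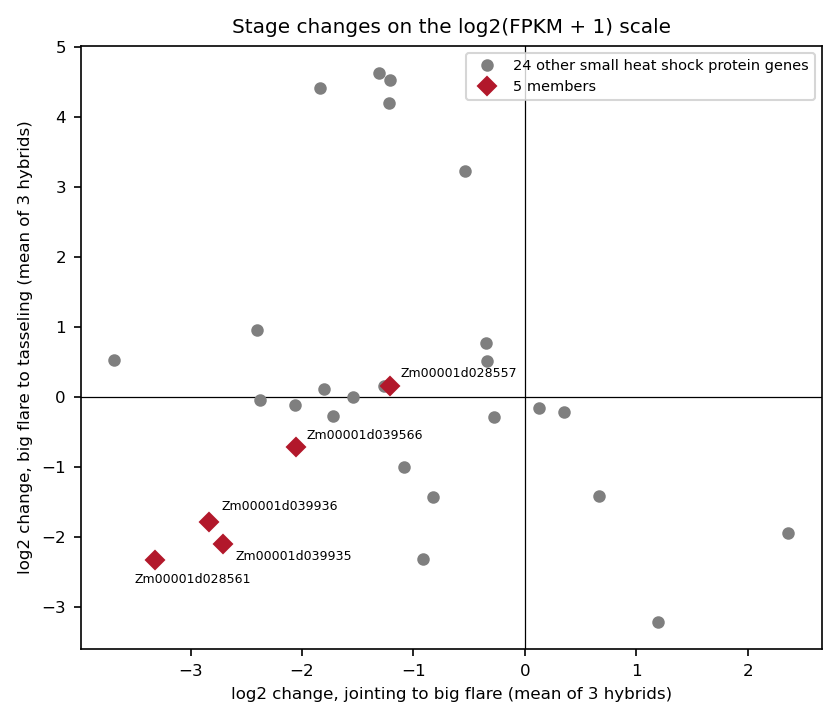
Each point is a gene, with its log2 change from jointing to big flare on the x axis and from big flare to tasseling on the y axis, averaged over hybrids. The 4 genes chosen on stage lie below 0 on both axes, and 5 of the 24 other tested small heat shock protein genes lie above 3 on the y axis.

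Differences between hybrids in these 4 genes did not enter their choice and were tested, with 3 comparisons per gene. Of the 12 tests, 0 passed with limma after adjustment over all genes, beside 2.07% to 5.63% of all genes by comparison and direction. An unadjusted p under 0.05 was found in 6. No share of all genes at an unadjusted p is given here, so such counts are not read as results. The 12 tests are also not independent, since comparisons share libraries and Zm00001d039935 and Zm00001d039936 had an r of 0.98. Against the low hybrid, the high hybrid had a log2 difference of -1.04 ± 0.62 in Zm00001d028561 (adjusted p = 0.365), -1.09 ± 0.42 in Zm00001d039935 (0.139), -1.33 ± 0.46 in Zm00001d039936 (0.0993) and -0.82 ± 0.29 in Zm00001d039566 (0.106). The middle hybrid, compared with the same low-hybrid libraries, had -1.89 ± 0.62 (adjusted p = 0.0967), -0.24 ± 0.42 (0.835), -0.23 ± 0.46 (0.856) and -0.75 ± 0.29 (0.172) in the same order. The high hybrid differed from the middle by 0.86 ± 0.62 (adjusted p = 0.62), -0.85 ± 0.42 (0.38), -1.10 ± 0.46 (0.273) and -0.08 ± 0.29 (0.962).

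**Figure D4:**
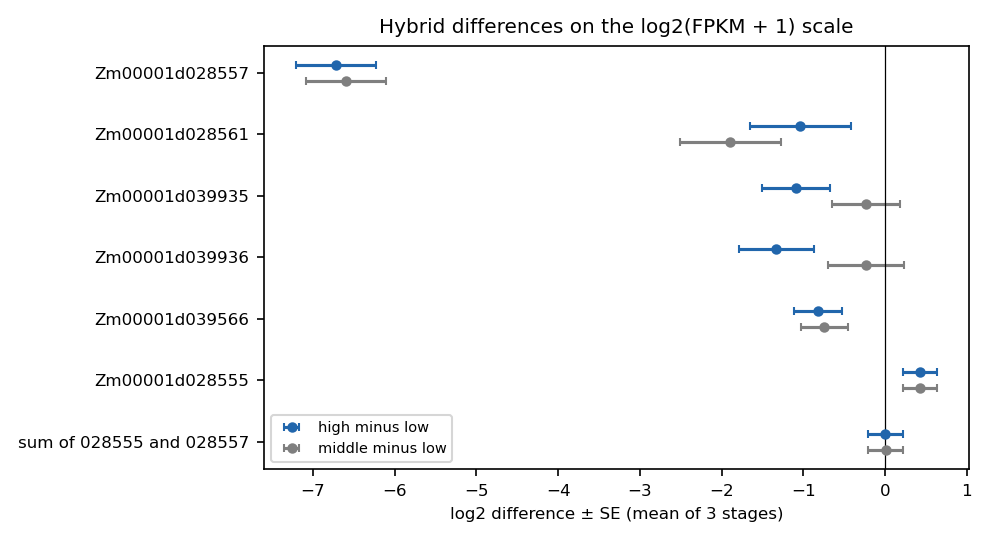
Log2 differences from the low hybrid, averaged over stages, with SE bars, for the 5 chosen genes, for Zm00001d028555 and for its sum with Zm00001d028557. Zm00001d028557 lies below -6 in both comparisons, the other chosen genes lie between -1.89 and -0.23, and the sum lies at 0.00 and 0.01.

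The hybrid calls changed when jointing libraries were left out, in fits for which no share of all genes is given here. With big flare and tasseling libraries only, an alternative added after seeing the data, 3 of the 12 passed: Zm00001d039935 in high against low (-1.595, adjusted p = 0.0488) and Zm00001d039936 in high against low (-2.12, adjusted p = 0.0172) and in high against middle (-2.12, adjusted p = 0.0313). Of the single libraries left out, low jointing replicate 1 let Zm00001d028561 pass in middle against low (-2.34, adjusted p = 0.046), and high jointing replicate 1 let Zm00001d039936 pass in high against low (-1.72, adjusted p = 0.0265). Zm00001d039566 passed in high against low without middle jointing replicate 1 (adjusted p = 0.0441) or replicate 2 (0.043), and without the latter also in middle against low (-1.02, adjusted p = 0.0303).

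The lowest levels of Zm00001d039935 and Zm00001d039936 were those of the high hybrid at tasseling, 1.89 to 3.28 FPKM, against 9.53 to 53.2 FPKM in the low and middle hybrids at that stage. Compared within tasseling, a test added after these levels were seen and resting on 2 libraries a side, Zm00001d039936 differed between the high and low hybrids, with the high hybrid the lower (log2 difference -3.04 ± 0.80, adjusted p = 0.0455). It was the 1 test of 12 to pass at that stage, where 6 had an unadjusted p under 0.05. At tasseling, the high hybrid had 3.51% and the middle hybrid 1.86% of all tested genes lower than the low hybrid, and 0.455% were lower in high against middle. The call was lost without any of the 4 libraries compared, without any of 6 big flare libraries, and under 4 other settings (adjusted p up to 0.217). Zm00001d039935 had -2.28 ± 0.72 in the same comparison (adjusted p = 0.0909), and against the middle hybrid the high hybrid had -2.36 ± 0.72 in Zm00001d039935 (adjusted p = 0.212) and -3.10 ± 0.80 in Zm00001d039936 (adjusted p = 0.104). At jointing and big flare 0 of 12 tests passed at each stage, with 0 and 2 at an unadjusted p under 0.05.

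A difference of the stage changes between hybrids was tested with a moderated F test of the interaction, which 0 of the 5 chosen genes passed, against 0.056% of all genes. Zm00001d039936 had an unadjusted p of 0.0342 (adjusted p = 0.923), Zm00001d039566 0.0647, Zm00001d039935 0.154, Zm00001d028561 0.452 and Zm00001d028557 0.705, each of these last 4 with an adjusted p of 1.

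The 2 jointing libraries of a hybrid differed in the same direction for all 4 genes chosen on stage. In the low hybrid replicate 2 was the higher, by 2.71 in Zm00001d028561, 1.35 in Zm00001d039935, 1.30 in Zm00001d039936 and 0.43 in Zm00001d039566 on the log2 scale. In the middle hybrid replicate 2 was again higher, by 2.57, 1.34, 1.40 and 1.65. In the high hybrid replicate 2 was lower, with differences of -2.12, -1.83, -2.35 and -0.21. Over all genes tested, the SD of this difference was 0.848 in the low, 0.766 in the middle and 0.902 in the high hybrid. Relative depth was 0.458 and 0.661 in the 2 low libraries, 0.478 and 0.449 in the middle and 0.965 and 0.524 in the high libraries, so the library with the higher levels was the deeper one in the low and high hybrids only. The summed FPKM of 54 leaf and green tissue genes in these libraries, replicate 1 first, was 5771 and 15740 in the low hybrid. It was 7963 and 15161 in the middle and 11008 and 8783 in the high hybrid, the direction of the 4 genes each time. Sums of tassel and floral genes and of cell division genes went the opposite way in each hybrid. Those of xylem, meristem and water-deficit genes matched in some hybrids only. Of the other heat shock lists described below, the HSP40 sum also matched each time: 1908 and 2056 in the low, 1564 and 1663 in the middle and 2283 and 1544 in the high hybrid. The remaining lists matched in some hybrids only. In the high hybrid all were higher in replicate 1, with 508 and 251 for heat shock factors and 2391 and 458 for co-chaperones. The part of depth, tissue, heat, plant or sampling in this spread was not tested.

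**Figure D5:**
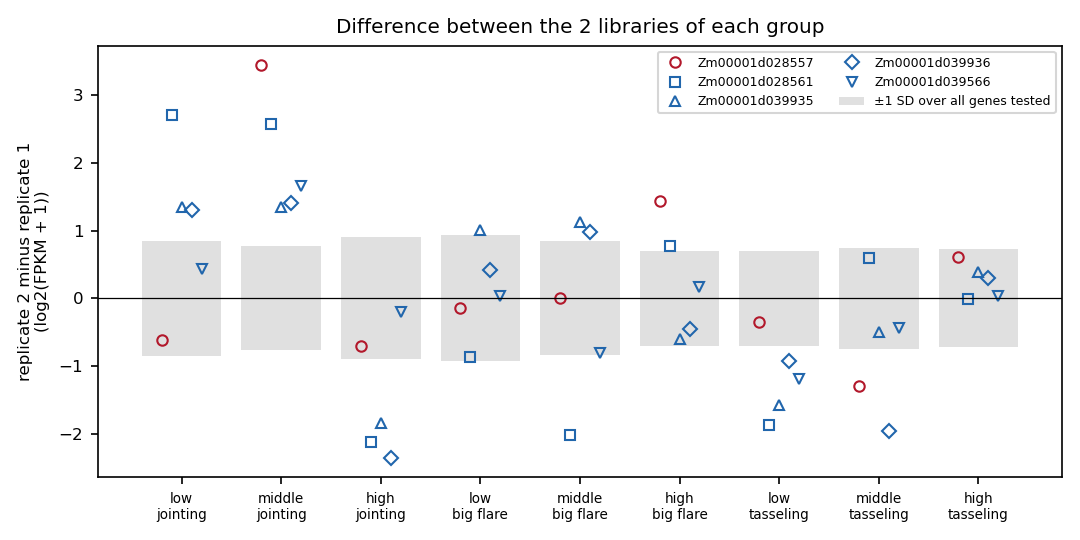
Difference between the 2 libraries of each group on the log2(FPKM + 1) scale, with 1 marker shape per gene and grey bars at ±1 SD over all genes tested. At jointing the 4 genes chosen on stage (blue) lie on the same side of 0 within each hybrid, above it in the low and middle hybrids and below it in the high hybrid.

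A search of the deposited protein names found 26 further small heat shock protein genes, of which 24 were tested. The HSP20 family term was carried by 46 genes of the table, and 19 of these lay outside both the chosen genes and the names found and are in none of the counts given here. Some of the 19 carry the term beside unrelated ones, such as the glycosyl transferase-named Zm00001d047547. At least 2 of the 19 have a small heat shock protein name, seen only afterwards: Zm00001d028408 (heat shock protein26), with 8.49 ± 5.19, 1.30 ± 1.12 and 0.362 ± 0.196 FPKM at the 3 stages, and Zm00001d052194 (low molecular weight heat shock protein precursor), with 349 ± 157, 149.8 ± 77.9 and 391 ± 102 FPKM (SD, n = 6). Of the 24, 8 fell and 2 rose from jointing to big flare (33.3% and 8.33%, beside 5.06% lower and 7.29% higher over all genes). From big flare to tasseling 5 fell and 7 rose (20.8% and 29.2%), near the 19.2% and 22.4% of all genes. From jointing to tasseling 13 fell and 5 rose (54.2% and 20.8%, beside 11.1% and 18.8%). Their median log2 change was -1.15, -0.02 and -0.93, beside 0.07, 0.01 and 0.08 over all genes tested. The count of 8 became 4 without low big flare replicate 2 or without high big flare replicate 1, and 5 without middle big flare replicate 1. The 17 genes of this list with a mean of at least 20 FPKM in any group are described next.

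Among the cytosolic classes, the class II gene Zm00001d008841 had 319 ± 140 FPKM at jointing, 76.1 ± 47.2 at big flare and 66.7 ± 60.3 at tasseling (SD, n = 6), and fell in the first step (log2 change -2.38 ± 0.42, adjusted p = 0.00541). The class II gene Zm00001d018298 went from 192 ± 76.4 to 106 ± 40.2 and 38.1 ± 12.96 FPKM and fell in the second step (-1.42 ± 0.28, adjusted p = 0.00168). The other class II gene, BGI_novel_G001669, fell from jointing to tasseling (-2.09 ± 0.39, adjusted p = 0.00198). The class I gene Zm00001d039941 fell from big flare to tasseling (-2.31 ± 0.51, adjusted p = 0.00329), from 52.9 ± 16.0 to 13.7 ± 13.7 FPKM.

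Class IV genes, whose products enter the endoplasmic reticulum in plants where they have been studied, differed from each other. Zm00001d007271 had 53.5 ± 38.6 FPKM at jointing and 6.87 ± 13.3 at big flare, a change of -3.69 ± 0.72 (adjusted p = 0.00822). Its differences from the low hybrid, -2.40 ± 0.72 in the high (adjusted p = 0.0587) and -2.27 ± 0.72 in the middle hybrid (adjusted p = 0.0884), did not pass. Zm00001d025508 was higher in the high hybrid, at 32.8 ± 33.4 FPKM, than in the middle (6.64 ± 10.8) and the low hybrid (2.69 ± 3.75). That was a log2 difference of 3.11 ± 0.50 from the low (adjusted p = 0.00135) and 2.49 ± 0.50 from the middle hybrid (adjusted p = 0.0117), the opposite order to Zm00001d028557. At big flare the high hybrid had 23.6 and 86.8 FPKM and both other hybrids had 0. At jointing and tasseling the high and middle hybrids overlapped. The interaction F test of this gene did not pass (unadjusted p = 0.0105, adjusted p = 0.738). Zm00001d025508 was the only gene of the 24 that was higher in the high than in the low hybrid in this fit (4.17%, near the 3.58% of all genes). In middle against low, 1 of 24 was lower (4.17%, near the 4.31% of all genes), the HSP20-like domain gene Zm00001d037236 (-0.65 ± 0.17, adjusted p = 0.0366). That call was lost when any of 10 single libraries was left out.

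The chloroplast small heat shock protein genes moved in different ways. Zm00001d015777 fell from 46.9 ± 26.3 at jointing to 8.53 ± 5.70 FPKM at big flare (-2.40 ± 0.47, adjusted p = 0.00837), whereas Zm00001d015776 fell from 20.1 ± 4.42 at big flare to 6.90 ± 1.59 FPKM at tasseling (-1.42 ± 0.17, adjusted p = 6.81e-05). The class V gene Zm00001d021634 rose to big flare (2.37 ± 0.41, adjusted p = 0.00477) and fell again by tasseling (-1.94 ± 0.41, adjusted p = 0.00253), with 2.63 ± 2.73, 17.0 ± 11.5 and 3.10 ± 1.79 FPKM at the 3 stages. Zm00001d053965 also had its highest mean at big flare, 195.6 ± 121 FPKM, and fell to 20.7 ± 12.3 at tasseling (-3.21 ± 0.47, adjusted p = 0.00023). Zm00001d015423, named as a nudC domain protein rather than a heat shock protein, was at 15.8 ± 5.35, 19.6 ± 2.40 and 16.8 ± 2.34 FPKM and passed no test.

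Another group rose at tasseling, when the 4 genes chosen on stage had their lowest means over hybrids. Zm00001d014146 had 4.29 ± 5.16 FPKM at jointing, 0.632 ± 1.00 at big flare and 37.0 ± 16.5 at tasseling, a rise of 4.62 ± 0.53 in the second step (adjusted p = 5.57e-05). Zm00001d032893 rose by 4.52 ± 0.49 (adjusted p = 4.16e-05), Zm00001d011241 by 4.41 ± 0.48 (adjusted p = 4.33e-05) and Zm00001d030317 by 4.19 ± 0.65 (adjusted p = 0.000331). Their tasseling means were 43.3 ± 18.03, 31.5 ± 13.2 and 26.7 ± 18.6 FPKM, and each was below 2 FPKM on average at big flare. These 4 calls held in all 18 fits with 1 library left out.

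Among heat shock factors, the transcription factors of the heat response, falls outnumbered rises at tasseling. Of 22 listed genes 19 were tested, and 10 fell and 0 rose from big flare to tasseling, while 0 fell and 1 rose from jointing to big flare. The falls to tasseling were 52.6% of those tested, beside 19.2% of all genes. The 2 most abundant, both B-2c-like factors, fell in the second step: Zm00001d021264 with a log2 change of -1.19 ± 0.19 (adjusted p = 0.000446) and Zm00001d021263 with -1.43 ± 0.17 (adjusted p = 7.88e-05). The median log2 change of the factors was -0.02 in the first step and -0.63 in the second. The part of heat shock factors in the stage values of the chosen genes was not tested.

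HSP70, the ATP-dependent partner in refolding, had 27 tested genes of 34 listed, with 1 higher and 3 lower at big flare than at jointing and 4 higher and 3 lower at tasseling than at big flare. The first-step counts are 3.7% and 11.1%, beside 7.29% and 5.06% of all genes. Those of the second step, 14.8% and 11.1%, are below the 22.4% and 19.2% of all genes. Its most abundant genes, Zm00001d041550 and Zm00001d030725, fell at tasseling, with log2 changes of -1.504 ± 0.30 (adjusted p = 0.00157) and -1.58 ± 0.27 (adjusted p = 0.000578). For HSP90, 0 of 7 rose and 1 fell in the first step and 2 rose and 1 fell in the second (28.6% and 14.3%, near the shares of all genes), the single fall being Zm00001d006008 (-1.84 ± 0.30, adjusted p = 0.000457). The other abundant gene of the HSP90 list, Zm00001d031332, had a first protein match named only as a hypothetical protein. It was higher in the high than in the low hybrid (1.21 ± 0.28, adjusted p = 0.0152), a call lost without low tasseling replicate 2 or without high big flare replicate 2 (adjusted p up to 0.0511).

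HSP100 proteins are disaggregases that work with small heat shock proteins, and both genes of that list were tested. The first protein match of Zm00001d038035 was named only as a hypothetical protein. Zm00001d029557, named as chloroplastic ClpB2, fell from big flare to tasseling (-0.87 ± 0.18, adjusted p = 0.00242). Zm00001d038035 differed between hybrids in the same direction as Zm00001d028557: it was lower than in the low hybrid by 2.27 ± 0.29 in the high hybrid (log2 difference -2.27, adjusted p = 0.000181) and by 1.83 ± 0.29 in the middle hybrid (-1.83, adjusted p = 0.00134). Of the DnaJ-type HSP40 co-chaperones, 54 of 64 were tested, with 8 higher and 2 lower in the first step and 5 higher and 22 lower in the second, where the lower genes were 40.7%, beside 19.2% of all genes. Among 11 tested co-chaperones of 13, 0 rose and 2 fell and then 1 rose and 5 fell, and among 15 tested chaperonins of 19, 0 rose and 1 fell and then 3 rose and 2 fell. In the second step 45.5% of these co-chaperones and 13.3% of the chaperonins fell, beside 19.2% of all genes. First-step falls were 3.7% of the HSP40 genes, 18.2% of these co-chaperones and 6.67% of the chaperonins, beside 5.06% of all genes. The first-step rises of HSP40 were 14.8%, beside 7.29%.

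Markers of the tissues that a stem sample can hold were counted at the same steps, to be read beside the 7.29% of all genes higher and 5.06% lower in the first step and the 22.4% and 19.2% in the second. The summed FPKM of 54 leaf and green tissue genes ran from 5771 to 15740 in jointing libraries, from 4309 to 9922 at big flare and from 4962 to 9222 at tasseling. Of 51 tested genes 0 rose and 2 fell in the first step and 6 rose and 7 fell in the second. At tasseling 1 was higher and 14 were lower than at jointing (1.96% and 27.5%, beside 18.8% and 11.1% of all genes). For 31 xylem and secondary wall genes the ranges were 1296 to 4241, 413 to 1744 and 752 to 6271, with 1 riser and 2 fallers among 22 tested in the first step and 8 and 3 in the second. Of the tassel and floral list of 55 genes, 13 of 29 tested rose and 1 fell to big flare and 6 rose and 8 fell to tasseling, and its sum ran from 429 to 566 at jointing, from 790 to 1172 at big flare and from 511 to 781 at tasseling. The 10 meristem genes summed to 310 to 380, 408 to 568 and 171 to 348 FPKM, with 3 risers and 0 fallers to big flare and 1 riser and 6 fallers to tasseling. For 8 cell division genes the sums were 10.4 to 25.4, 11.1 to 22.8 and 14.6 to 44.1 FPKM, and of 7 tested 1 rose and 0 fell in the first step and 2 rose and 1 fell in the second. No gene of these lists was at 0 throughout, and the part of tissue composition in the stage values of the chosen genes was not tested.

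Genes whose pattern over the 18 libraries was most like each chosen gene were named by Pearson r of log2(FPKM + 1), as a description over libraries that share stage, hybrid and depth. For Zm00001d028557 they were Zm00001d010725 (r = 0.961), the PERK1-named receptor-like kinase gene Zm00001d040368 (r = 0.961) and BGI_novel_G000203 (r = 0.960). None of these 3 was a heat shock protein gene by name. With the other chosen genes Zm00001d028557 had an r of 0.297 to 0.463, and with Zm00001d028555 -0.09. It was chosen on hybrid and the others on stage, so a low r with them follows in part from the choice.

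The nearest patterns of the other chosen genes did include the family. Zm00001d039935 and Zm00001d039936 were nearest to each other, and then to Zm00001d039566 (r = 0.907 and 0.885) and to the protein phosphatase 2C-named gene Zm00001d012401 (r = 0.903 and 0.872). Zm00001d039566 was nearest to Zm00001d028554 (r = 0.951), to BGI_novel_G001669 (r = 0.932) and to Zm00001d028561 (r = 0.929). Zm00001d028561 was nearest to a farnesene synthase-like gene, Zm00001d035682 (r = 0.948), to a glycosyl transferase-named gene, Zm00001d047547 (r = 0.936), and to Zm00001d039566.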

How the data were processed

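The authors deposited FPKM values for 34474 genes in 18 libraries. TopHat2, Cufflinks 2.2.1, Cuffdiff, DESeq 1.28.0 and the build B73 RefGen_v4 are named, per the submitters' processing notes, with no role or order. How fragments that fit several copies were assigned is not given in the sources used here. Gene names are best protein matches in the deposited table, and 2 of the 5 chosen genes matched the RefSeq table (assembly NAM-5.0), which was used for names only. No sequences are shown.

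Relative depth came from ratios of FPKM values below 1, and 99.3% of 306 ordered library pairs lay within 0.05 log2 of the fitted depths. limma 3.58.1 (R 4.3.3) was fitted to log2(FPKM + 1) for 26792 genes with at least 1 FPKM in at least 2 libraries, with 9 group means, 9 residual degrees of freedom and a mean trend. This scale understates changes of low genes. Hybrids were compared as means of 3 stages, stages as means of 3 hybrids, and hybrids also within each stage, two-sided, with Benjamini-Hochberg adjustment over all genes per comparison and a threshold of 0.05. The procedure was tested on simulated data. Replicate numbers did not pair the samples: over 36 pairs of groups, the deviations correlated at -0.43 to 0.293, and 8 exceeded 0.1.

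The genes, the lists (matched by annotation terms, so with some stray names) and the tests were chosen with earlier results of these data known. Besides the chosen genes, the text names the 3 genes nearest in pattern to each, other small heat shock protein genes with a group mean of at least 20 FPKM, and the 2 most abundant genes of the heat shock factor, HSP70, HSP90 and HSP100 lists; Zm00001d028408 and Zm00001d052194 were named after the values were seen.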

Additional observations from a re-analysis of the deposited data

Results flagged for a closer look

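From big flare to tasseling, Zm00001d028557 went in opposite directions in 2 hybrids without overlap between the stages. The mean FPKM changed by -24.97 in the low hybrid, where the gene was abundant, and by 1.47 in the middle hybrid, where both big flare libraries were listed at 0 and the tasseling libraries had 2.51 and 0.43. The difference between these 2 changes was not tested on its own. The interaction test over all hybrids and stages gave an unadjusted p of 0.705 (adjusted p = 1, limma) for this gene.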

How the results depend on the processing

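The alternatives were a pseudocount of 0.1, no filter on low values, median-of-ratios scaling, quantile normalization, the replicate block and each library left out. With the replicate block, 0 of 12 hybrid tests, 0 of 3 stage tests of Zm00001d028557 and 0 of 5 interaction tests passed, as without it, and of the genes named Zm00001d030725 lost a call (first step, 0.89, adjusted p = 0.0541), as did Zm00001d039936 in high against low within tasseling (-3.039, adjusted p = 0.0588). The numbers in the samples do not pair them.

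Leaving out 1 library moved the count of passing hybrid tests between 0 and 2 and of stage tests of Zm00001d028557 between 0 and 2. For the 24 other small heat shock protein genes, big flare against jointing ranged from 1 to 2 higher and 4 to 10 lower, high against low from 0 to 1 lower, high against middle from 1 to 3 higher and 0 to 1 lower, and middle against low from 0 to 1 higher and 0 to 1 lower. For heat shock factors and other chaperones together, big flare against jointing ranged from 4 to 11 higher and 5 to 11 lower, high against low from 3 to 12 higher, high against middle from 3 to 11 higher and 1 to 3 lower, middle against low from 3 to 10 lower, and tasseling against jointing from 8 to 16 higher.

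With a pseudocount of 0.1, chaperones lower in high against middle went from 4 to 2, and Zm00001d028557 stood at -8.325 (high against low) and -8.579 (middle against low). Zm00001d028561 then stood at -3.627 (big flare to tasseling) and -7.454 (jointing to tasseling). With quantile normalization, 2 rather than 1 other small heat shock protein genes were higher in high against middle. With big flare and tasseling only, 3 hybrid tests passed and 0 other small heat shock protein genes were lower in middle against low.

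Signs turned in changes that passed no test. With 1 library left out, Zm00001d039935 in middle against low ran from -0.5 to 0.025 (above 0 without low tasseling replicate 1), Zm00001d039936 from -0.56 to 0.092 (middle tasseling replicate 2), Zm00001d039566 in high against middle from -0.351 to 0.201 (middle jointing replicate 2, and 0.059 without middle big flare replicate 1) and Zm00001d028557 from big flare to tasseling from -0.079 to 0.401 (below 0 without high big flare replicate 1, and -0.055 without middle tasseling replicate 1), with -0.264 in the low hybrid alone. Within tasseling, the difference of Zm00001d039936 between the high and low hybrids ran from -3.501 to -2.578 with 1 library left out, and lost its call with no filter (adjusted p = 0.0637), median-of-ratios scaling (0.0895) and quantile normalization (0.067). The cause was not tested. FPKM hold no counts, so the precision of values near 0 is unknown.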
